A study of Mus musculus with 6 samples.

Results

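The region described here is the stretch of mouse chromosome 17 from 33800000 to 37400000 (mm9 build, 3.6 Mb) that was taken as the major histocompatibility complex (MHC), with 1 Mb on either side as flanks. Its members are the GATC fragments, the pieces of DNA between neighbouring GATC sites, whose midpoint lies in the window. There were 9765 of them among the 6414976 fragments on the main chromosomes. The upstream flank held 2721 fragments and the downstream flank 2947. The window was chosen by position and not by signal. Positions of genes in mm9 were not used here, so the label MHC rests on the coordinates alone and no 100 kb bin is given a gene.

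Contact with the nuclear lamina was measured by DamID, in which the bacterial adenine methyltransferase Dam, fused to a lamin, marks GATC sites of the chromatin it touches. Each value is the log2 ratio of reads in the fusion library to reads in a library of cells with Dam alone, so a value above 0 means more reads with the fusion. The cells were mouse embryonic fibroblasts of the C57BL/6 strain, labelled wild type, that carried a lentiviral shRNA and were selected with puromycin before another lentivirus brought in Dam or the fusion. The 3 maps were LmnA RNAi and LmnC RNAi, both made with Dam-LmnB1, and LmnB1 RNAi, made with Dam-LmnA, so in any difference that involves LmnB1 RNAi the depleted lamin and the fusion cannot be told apart. The protocol in the labels covers shRNA for LmnA and LmnC, and the third target, LmnB1, is named in the description labels. Lmna gives rise to lamins A and C by splicing, while lamin B1 comes from a gene of its own, Lmnb1.

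Each map came from 1 Dam-only and 1 fusion library, with no replicate, so no test between conditions was possible. Every difference below is between these libraries. Standard errors (SE) are over fragments and describe the scatter of fragments within 1 pair of libraries, not the spread between cultures. The SE of a difference between maps was formed from the SE of each map, as if the maps were independent. The same fragments have a value in every map, and this pairing was left out. Such an SE does not measure the scatter of the difference itself. Distances between maps in SE are therefore a description and no test of whether the maps differ. Depletion of the lamins was not measured, and the fibroblast label could not be checked against marker genes because RNA was not measured. Total reads per library are unknown, since ratios were deposited. Cells that received no shRNA were not analysed here.

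The MHC is the gene-dense cluster that encodes the proteins of antigen presentation. Class I heavy chains, such as H2-K1 and H2-D1, show peptides from inside the cell to CD8+ T cells, whereas class II chains, such as H2-Aa and H2-Ab1, show ingested peptides to CD4+ T cells. The class III interval, with complement genes and the cytokine genes Tnf, Lta and Ltb, lies between the class II genes and H2-D1. Lamina-associated domains (LADs) are long stretches of chromatin at the nuclear edge that are in general poor in genes and weakly transcribed. Fibroblasts express class I genes, while their class II genes are mostly silent until interferon gamma is present.

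RefSeq (GRCm38.p6) lists 169 protein-coding genes from H2-K1 to H2-M2 in this order along the chromosome. H2-K1 comes first and is followed by 9 class II genes, which enclose 4 genes of peptide processing (Psmb9, Tap1, Psmb8 and Tap2; Tap1 and Tap2 form the peptide transporter). Then come 6 complement and tumour necrosis factor genes (C4b, Cfb, C2, Ltb, Tnf and Lta), H2-D1 and 6 H2-Q genes. At the far end lie 5 H2-T genes and 12 H2-M genes, and the last H2-M genes are mixed with 16 olfactory receptor genes. Olfactory receptor clusters hold genes that are used in the nose. This order is background from another build and was not joined to the bins.

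DamID sees a promoter only through the GATC sites in it or near it, so 3 promoters are shown, 1 from the start, 1 from the middle and 1 from the end of that gene order. They are those of H2-K1, Tnf and H2-M3 (a class I gene that presents formylated peptides), each from 250 bases before to 50 bases after the gene start, 5′ to 3′ on the strand of the gene, on chromosome 17 in RefSeq GRCm38.p6. H2-K1 and Tnf are on the minus strand and H2-M3 is on the plus strand. Capitals mark GATC, which reads the same on both strands.
H2-K1: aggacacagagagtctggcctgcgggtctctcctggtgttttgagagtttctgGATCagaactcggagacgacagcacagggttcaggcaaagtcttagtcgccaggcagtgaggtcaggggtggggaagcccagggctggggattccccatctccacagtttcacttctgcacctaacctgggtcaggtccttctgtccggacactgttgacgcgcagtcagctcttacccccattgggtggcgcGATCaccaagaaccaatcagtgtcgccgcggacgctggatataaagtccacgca
Tnf: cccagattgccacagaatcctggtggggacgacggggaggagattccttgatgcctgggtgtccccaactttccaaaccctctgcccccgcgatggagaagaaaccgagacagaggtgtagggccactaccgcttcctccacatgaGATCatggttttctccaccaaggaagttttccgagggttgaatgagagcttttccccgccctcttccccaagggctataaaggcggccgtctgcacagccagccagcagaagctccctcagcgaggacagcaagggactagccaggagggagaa
H2-M3: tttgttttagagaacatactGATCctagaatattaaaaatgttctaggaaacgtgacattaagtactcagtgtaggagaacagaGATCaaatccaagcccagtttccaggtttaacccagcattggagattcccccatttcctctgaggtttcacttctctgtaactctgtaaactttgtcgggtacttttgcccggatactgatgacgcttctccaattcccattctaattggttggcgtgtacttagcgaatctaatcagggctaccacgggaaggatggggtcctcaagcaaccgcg
The H2-K1 and H2-M3 promoters each hold 2 GATC sites and that of Tnf holds 1. Among 186 promoters matched to 147 of the 169 genes, 98 (52.7%) held at least 1 GATC, against 48.0% of all 32851 promoters in the table. A promoter with no GATC, such as that of Tap1, has no site for Dam. It lies in a fragment whose GATC sites are outside the promoter.

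Most of the MHC stood below the genome in lamina contact in all 3 maps, and both flanks stood above it. The length-weighted mean log2 ratio of the window was -1.13 ± 0.06 in LmnA RNAi cells, -1.51 ± 0.07 in LmnC RNAi cells and -1.14 ± 0.06 in LmnB1 RNAi cells (SE over 9765 fragments). The rest of the genome had means of 0.72, -0.27 and 0.26 in the same order of maps. In the upstream flank the means were 1.42 ± 0.11, 0.72 ± 0.11 and 0.70 ± 0.10, and in the downstream flank 2.73 ± 0.12, 2.06 ± 0.11 and 2.20 ± 0.11. In every map the window lay more than 1 log2 unit below the rest of the genome, while each flank lay above it.

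A share of these values comes from fragments that were read in 1 library alone. With 1e-05 added to both read numbers before the log, such a fragment has a size above 12 on the log2 scale, and it is called a single-library fragment below. In the MHC 11.3% of fragments in LmnA RNAi cells were read in the fusion library alone, against 13.9% in the Dam-only library alone. In LmnC RNAi cells these shares were 9.77% and 16.6%, and in LmnB1 RNAi cells 9.24% and 15.3%. In the rest of the genome fusion-only fragments were the more common kind in every map, at 16.9% against 8.25%, 13.0% against 11.97% and 14.2% against 10.2%. Without single-library fragments the MHC means were -0.80 ± 0.03, -0.68 ± 0.02 and -0.59 ± 0.02, and those of the rest of the genome 0.12, -0.16 and -0.04. The MHC was lower than the rest of the genome in each map and version. Fragments at the constant of the map, with 0 or equal reads in both libraries, made up 31.4%, 30.0% and 31.9% of MHC fragments and stay in both versions.

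**Figure D1:**
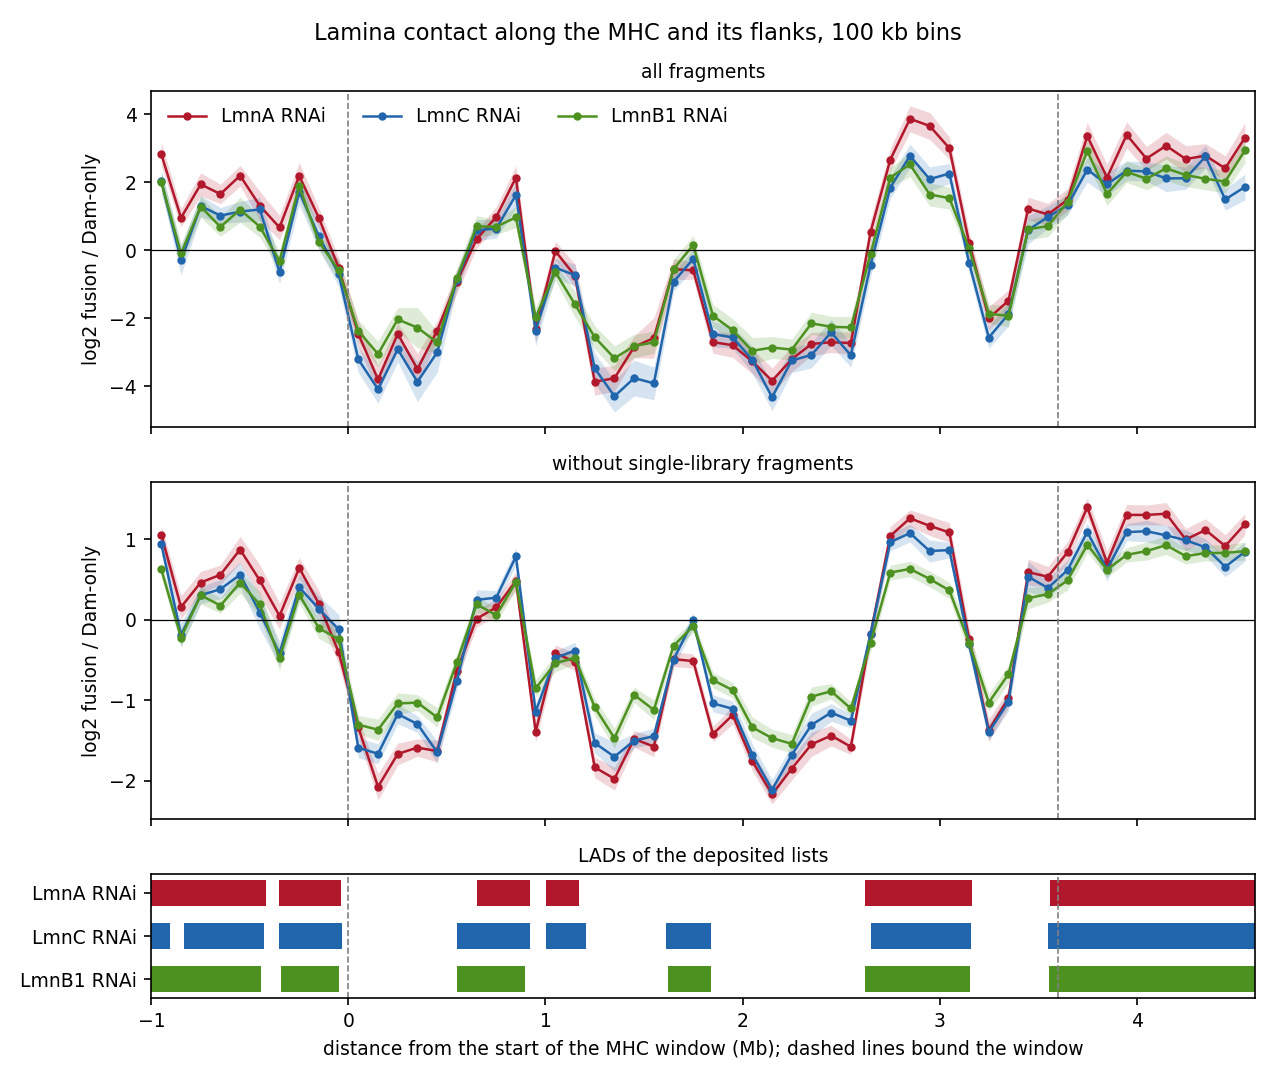
Mean log2 ratio of fusion over Dam-only reads in 100 kb bins along the MHC and its flanks, with all fragments (top) and without single-library fragments (middle); bands are ± 1 SE over fragments, colours are the 3 maps, and bars (bottom) are the deposited LADs. Most MHC bins lie below 0 in all maps, with the highest peak at 3.86 in LmnA RNAi cells, 2.77 in LmnC RNAi cells and 2.52 in LmnB1 RNAi cells, and the downstream flank lies inside a single long LAD of each map.

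Across the 36 bins of 100 kb, each with 211 to 351 fragments, the profile was low for most of its length with a few islands of contact. The ratio was above 0 in 11 of 36 bins in LmnA RNAi cells, where 66.2% of all 25588 bins of the genome were above 0. It was above 0 in 9 bins in LmnC RNAi cells (genome 51.7%) and in 11 in LmnB1 RNAi cells (genome 57.9%). The median MHC bin stood at the 13.2, 23.2 and 17.4 percentile of the genome's bins in LmnA, LmnC and LmnB1 RNAi. Its values were -2.16, -2.38 and -1.93, with an SD over bins of 2.28, 2.12 and 1.69.

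The extremes of the window lay toward both ends of the range of the genome. The bin 36600001-36700000 was the highest of the MHC in every map, at 3.86 ± 0.38, 2.77 ± 0.34 and 2.52 ± 0.35 in LmnA, LmnC and LmnB1 RNAi cells. These values stood at the 99.6, 97.7 and 91.8 percentile of the genome. Its neighbours took the second place: the bin from 36700001 in LmnA RNAi cells (3.65), that from 36800001 in LmnC RNAi cells (2.25) and that from 36500001 in LmnB1 RNAi cells (2.14). The lowest bins were spread over 3 separate stretches. The lowest value was -3.86 ± 0.40 in the bin from 35000001 in LmnA RNAi cells, -4.32 ± 0.39 in the bin from 35900001 in LmnC RNAi cells and -3.17 ± 0.36 in the bin from 35100001 in LmnB1 RNAi cells. They stood at the 0.985, 2.95 and 3.08 percentile. The second lowest bins were those from 35900001 in LmnA RNAi cells (-3.83), from 35100001 in LmnC RNAi cells (-4.29) and from 33900001 in LmnB1 RNAi cells (-3.05). Bins less than 1 Mb apart thus stood at the 1.08 and the 99.6 percentile in LmnA RNAi cells.

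The deposited LAD lists showed the same pattern. LADs held 28.3% of MHC fragment length in LmnA RNAi cells, 37.6% in LmnC RNAi cells and 31.4% in LmnB1 RNAi cells. In the rest of the genome they held 67.9%, 58.9% and 59.8%, and in the rest of chromosome 17 64.5%, 56.2% and 54.5%. The upstream flank was covered to 89.8%, 81.8% and 85.0%, and the downstream flank to 100% in every map. The order of the maps in the MHC differed from that elsewhere: the LmnA RNAi list had the smallest share inside the window and the largest in the rest of the genome, in the rest of chromosome 17 and in the upstream flank. Bins with at least 50% of their length in LADs numbered 10, 13 and 11 of 36, where the genome had 68.2%, 59.2% and 60.1%.

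Sorted by how many lists held it, 61.2% of MHC length was in no LAD and 21.7% was in all 3 lists, against 29.9% and 54.8% in the rest of the genome. The largest part held by a pair of lists alone was 8.88% in LmnC and LmnB1 RNAi without LmnA RNAi, where the rest of the genome had 0.677%. LmnA and LmnC RNAi without LmnB1 RNAi held 5.45% (rest of the genome 2.69%). Length in the LmnA RNAi list alone was 0.326% of the MHC, against 6.94% of the rest of the genome. Between the LmnA and LmnC RNAi lists 968 kb of the window were shared, 43.0 kb were in the LmnA RNAi list only and 375 kb in the LmnC RNAi list only. The lists overlapped less in the MHC than elsewhere, with a Jaccard index (shared length over length in either) of 0.698 for LmnA with LmnC RNAi, 0.606 for LmnA with LmnB1 RNAi and 0.793 for LmnC with LmnB1 RNAi, against 0.830, 0.839 and 0.878 in the rest of the genome. A few LADs decide these values, since each list had only 3 or 4 LADs wholly inside the window. The index also depends on the share of length in LADs, which was smaller in the MHC, and the regions were not matched for it.

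The LADs wholly inside the window fell on 4 sites, numbered here along the chromosome, each taken from the outermost borders of any list. The LmnA RNAi list had 3 LADs (34452456-34722822, 34800590-34970388 and 36421869-36965048). The LmnC RNAi list had 4 (34349454-34720959, 34804858-35006871, 35412348-35638438 and 36453575-36959420). The LmnB1 RNAi list had 3 (34352846-34694917, 35423759-35638438 and 36421383-36954898). Sites 1 and 4 were in all lists, site 2 was missing from that of LmnB1 RNAi, and site 3 was missing from that of LmnA RNAi. The LAD lists and the ratios come from the same libraries, so the levels of the sites are a description.

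Site 4 (36421383-36965048, 544 kb, 1819 fragments) had the highest contact of the 4 sites. Its mean was 2.80 ± 0.15 in LmnA RNAi cells, 1.86 ± 0.14 in LmnC RNAi cells and 1.69 ± 0.14 in LmnB1 RNAi cells, and 0.92 ± 0.05, 0.75 ± 0.05 and 0.42 ± 0.04 without single-library fragments. The LmnA RNAi mean was the highest in both versions, but with each map centred on its median bin of the genome the means were 1.50, 1.71 and 1.06, and LmnC RNAi was the highest. Of its single-library fragments 84.7% were read in the fusion library in LmnA RNAi cells (95% exact Clopper-Pearson interval 81.4 to 87.6), 75.3% in LmnC RNAi cells (71.2 to 79.1) and 75.6% in LmnB1 RNAi cells (71.5 to 79.5). These intervals, like all those below, cover counting error only, and reads without molecular identifiers are not independent molecules. Site 4 also had the shortest fragments of the stretches inside the window, with a median of 193 bp against 245 bp over the whole MHC. Whether fragment length has a part in its level was not tested.

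Site 1 (34349454-34722822, 373 kb) had intermediate contact, with means of 0.92 ± 0.16, 0.87 ± 0.17 and 0.63 ± 0.14 in LmnA, LmnC and LmnB1 RNAi cells. Without single-library fragments these were 0.12, 0.26 and 0.15. In each pair the maps differed there by less than 2 SE, with or without single-library fragments. This SE leaves out the pairing of fragments between maps. After centring LmnA minus LmnC RNAi was -1.09 ± 0.24, against 0.06 as deposited. LmnC minus LmnB1 RNAi was 0.72 ± 0.23, against 0.24, and LmnA minus LmnB1 RNAi was -0.37 ± 0.22. Centring shifts every stretch of a pair by the same genome-wide constant, which the SE over fragments does not cover. LmnA minus LmnC RNAi and LmnC minus LmnB1 RNAi lay beyond 2 SE only after this shift. In the rest of the genome LmnA minus LmnC RNAi was 1.00 as deposited and -0.15 after centring. LmnC minus LmnB1 RNAi was -0.54 and -0.056 there. Whether the maps differed locally at site 1 was not tested. Its left edge was not the same in all lists: 34352846-34452456 lay in the LmnC and LmnB1 RNAi LADs and outside that of LmnA RNAi. The signal of this edge was -0.30 ± 0.31 in LmnA RNAi cells, 0.14 ± 0.27 in LmnC RNAi cells and 0.28 ± 0.24 in LmnB1 RNAi cells, values that lie within 2 SE of each other.

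Site 2 (34800590-35006871, 206 kb) was near or below 0 in all maps although it is a LAD in the LmnA and LmnC RNAi lists. Its means were -0.43 ± 0.22, -0.61 ± 0.21 and -1.12 ± 0.22 in LmnA, LmnC and LmnB1 RNAi cells. LmnA minus LmnB1 RNAi was 0.69 ± 0.32. Without single-library fragments the means were -0.49, -0.44 and -0.49, and this difference was -0.0012 ± 0.10. The lower LmnB1 RNAi value thus lay in the single-library fragments, of which 55.4% were read in the fusion library in LmnA RNAi cells (46.1 to 64.4), 46.7% in LmnC RNAi cells (37.6 to 56.0) and 36.2% in LmnB1 RNAi cells (27.9 to 45.2).

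Site 3 (35412348-35638438, 226 kb) showed the opposite pattern. With all fragments the means were -0.59 ± 0.18 in LmnA RNAi cells, whose list has no LAD there, and -0.61 ± 0.19 and -0.23 ± 0.19 in LmnC and LmnB1 RNAi cells, whose lists have a LAD. LmnA minus LmnC RNAi was 0.02 ± 0.26. Without single-library fragments LmnA RNAi was the lowest, at -0.56 against -0.25 and -0.21, and the differences were -0.30 ± 0.09 to LmnC RNAi and -0.35 ± 0.08 to LmnB1 RNAi. The bin from 35500001 held the largest drop of LmnA minus LmnC RNAi in the window without single-library fragments, at -0.51. The shares read in the fusion library were 46.6% (37.8 to 55.5), 48.8% (39.9 to 57.8) and 53.6% (44.9 to 62.1), which overlap. After centring LmnA minus LmnC RNAi was -1.14 and LmnA minus LmnB1 RNAi -1.03 at site 3, and LmnA minus LmnB1 RNAi was 0.02 and LmnC minus LmnB1 RNAi 0.99 at site 2. The size of the differences at these sites, which the lists treat unlike, thus changed with the version. Whether the maps differed there was not tested. The centred values again include the shift common to every stretch of a pair.

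**Figure D2:**
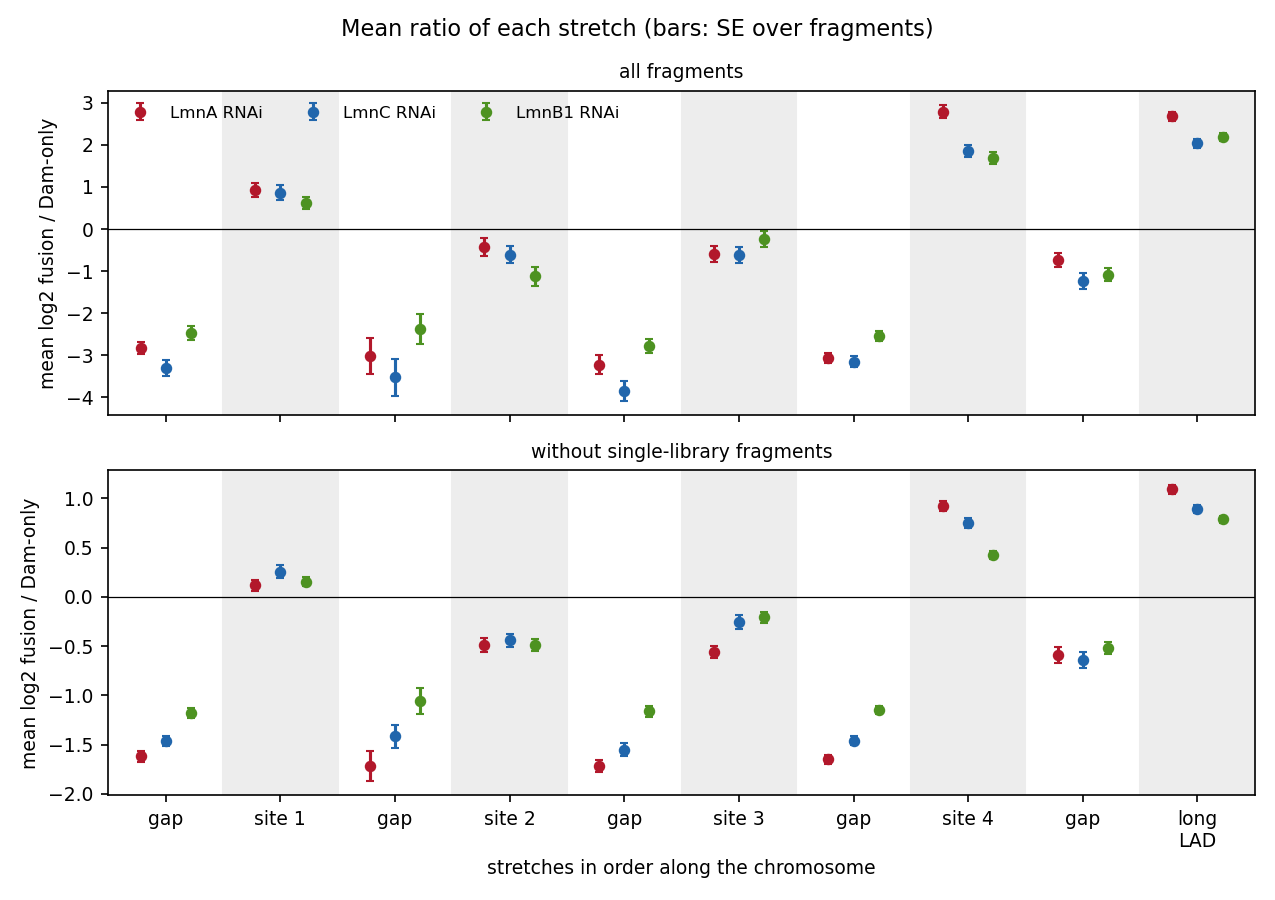
Mean log2 ratio of each stretch of the MHC in order along the chromosome, with all fragments (top) and without single-library fragments (bottom); points are the 3 maps, error bars are ± 1 SE over fragments, and grey marks LAD sites. Site 4 reaches 2.80 in LmnA RNAi cells, site 1 lies between 0.63 and 0.92, sites 2 and 3 lie below 0, and the 3 widest gaps between sites lie at -2.48 or lower with all fragments.

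**Figure D3:**
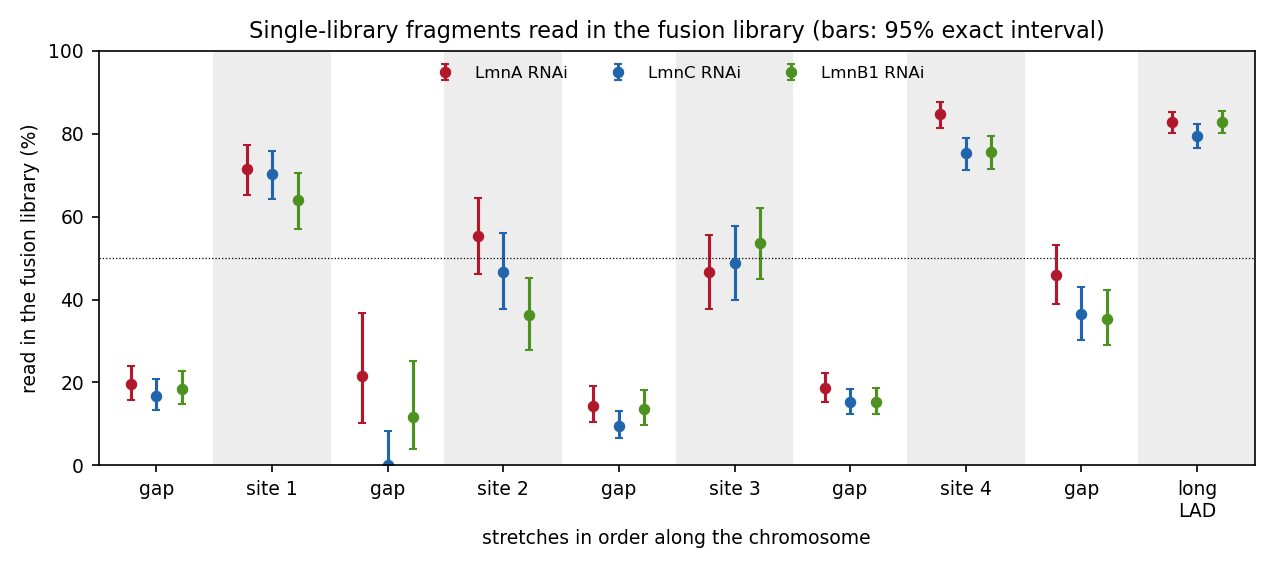
Share of single-library fragments read in the fusion library, in percent, for each stretch; points are the 3 maps, error bars are 95% exact intervals, and the dotted line is 50%. Site 4 lies between 75.3% and 84.7%, site 3 between 46.6% and 53.6%, and the gap from 35006871 to 35412348 at 14.3%, 9.51% and 13.5% in LmnA, LmnC and LmnB1 RNAi cells.

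Between the sites contact was low in all maps. The gap from 33765132 to 34349454 (584 kb) had means of -2.83, -3.32 and -2.48 in LmnA, LmnC and LmnB1 RNAi cells. That from 35006871 to 35412348 (405 kb) had -3.23, -3.85 and -2.79, and that from 35638438 to 36421383 (783 kb) had -3.07, -3.16 and -2.55. Each stayed well below 0 without single-library fragments, between -1.72 and -1.15. In the short gap between sites 1 and 2 (34722822-34800590, 77.8 kb), 9 of 42 single-library fragments were read in the fusion library in LmnA RNAi cells (exact interval 10.3 to 36.8%), 0 of 43 in LmnC RNAi cells (up to 8.22%) and 5 of 43 in LmnB1 RNAi cells (3.89 to 25.1%).

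The last gap, from 36965048 to 37350253 (385 kb), was unlike the others. Its means were -0.74 ± 0.17, -1.24 ± 0.19 and -1.08 ± 0.15, since low bins next to site 4 gave way to high ones before the long LAD. The bin from 37200001 had 1.23 ± 0.33 in LmnA RNAi cells, 0.60 ± 0.42 in LmnC RNAi cells and 0.62 ± 0.30 in LmnB1 RNAi cells (0.59, 0.53 and 0.27 without single-library fragments), although it lies in no LAD list. The long LAD that follows began at 37362600, 37350253 and 37357311 and reached 41009094, 40923125 and 41742429 in LmnA, LmnC and LmnB1 RNAi. From 37350253 to the end of the flank its means were 2.68 ± 0.12, 2.04 ± 0.10 and 2.19 ± 0.10. Site 4 was within 2 SE of this LAD in LmnA and LmnC RNAi cells and below it by more than 2 SE in LmnB1 RNAi cells. Without single-library fragments the LAD had 1.09, 0.89 and 0.79, and site 4 was below it by more than 2 SE in each map.

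Borders were steep at most sites. The step in mean ratio from the 50 kb outside a border to the 50 kb inside had a median of 2.66 over 7 borders in LmnA RNAi cells (range 1.52 to 3.60), 2.23 over 9 borders in LmnC RNAi cells (1.21 to 3.75) and 2.64 over 7 borders in LmnB1 RNAi cells (1.76 to 3.89). Borders and steps come from the same libraries, so the steps are a description. Without single-library fragments the medians were 1.11, 0.83 and 0.87. The right border of site 3 was at the same position, 35638438, in the LmnC and LmnB1 RNAi lists. The right border of site 4 was at 36965048, 36959420 and 36954898 in LmnA, LmnC and LmnB1 RNAi. Its left border was at 36421869, 36453575 and 36421383, so it began latest in the LmnC RNAi list.

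**Figure D4:**
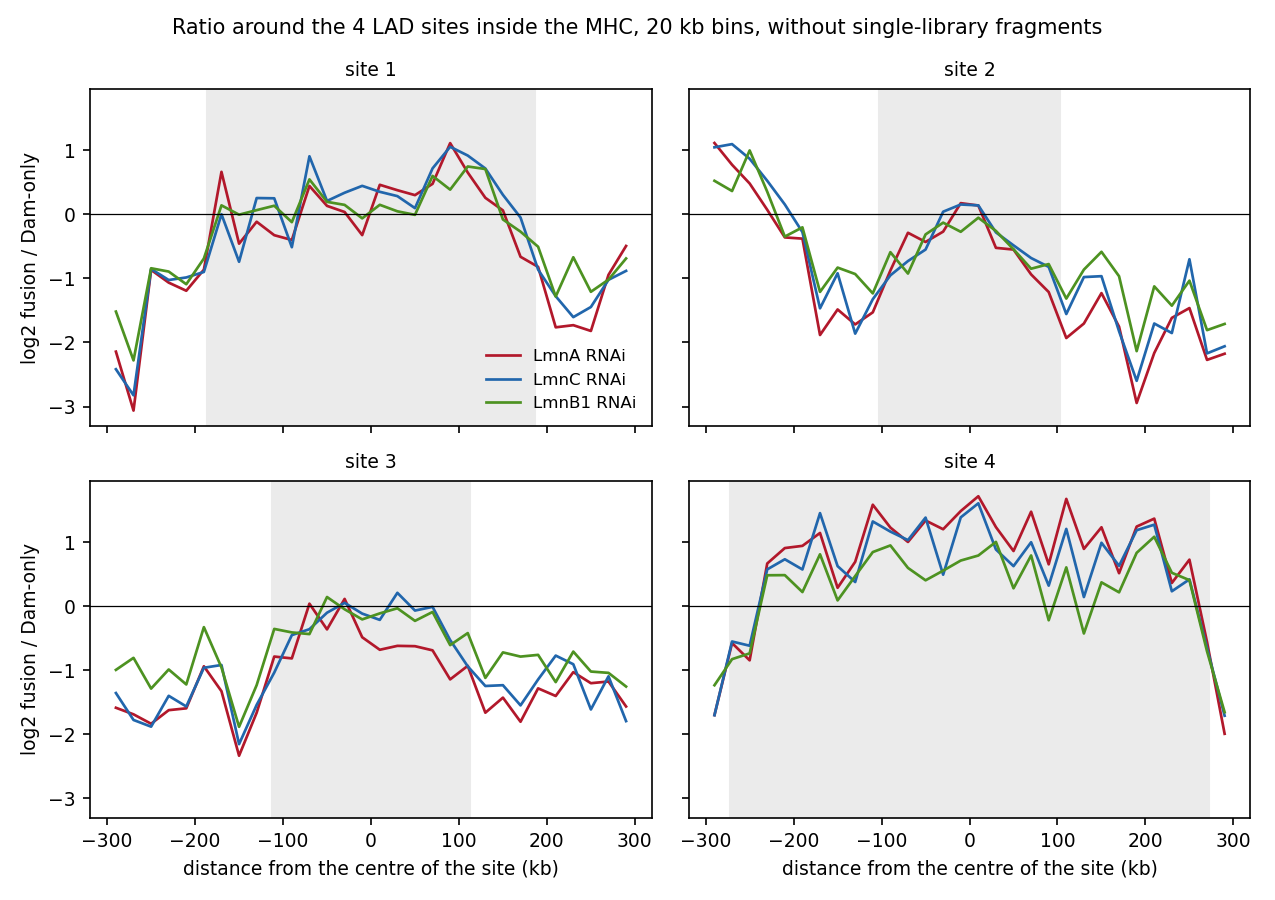
Mean log2 ratio without single-library fragments in 20 kb bins, out to 300 kb on either side of the centre of each of the 4 LAD sites; lines are the 3 maps and grey is the extent of the site. Site 4 lies above 0 over most of its length, but LmnB1 RNAi is at -0.22 and -0.42 in the bins from 80 and 120 kb. The mean of site 1 is near 0, with a peak of 1.11 in LmnA RNAi cells in the bin from 80 kb. Sites 2 and 3 stand out from the gaps around them with means between -0.56 and -0.21, with LmnA RNAi lowest over site 3 as a whole.

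As deposited, the mean differences between maps were smaller in size in the MHC than in the rest of the genome. This was also so in both flanks for LmnA minus LmnC RNAi and LmnC minus LmnB1 RNAi, but not for LmnA minus LmnB1 RNAi. After centring the mean differences were larger in size in the MHC for all 3 pairs. LmnA minus LmnB1 RNAi was then -0.66 against -0.21, and LmnC minus LmnB1 RNAi 0.11 against -0.056. A small mean can also hide opposite bins, since deposited LmnA minus LmnB1 RNAi ran from -1.31 to 2.01 in the MHC bins. LmnA minus LmnC RNAi, the pair that shares the Dam-LmnB1 fusion, was 0.38 ± 0.09 over the MHC and 1.00 in the rest of the genome. With each map centred on its own median bin it was -0.77 in the MHC and -0.15 in the rest of the genome, and without single-library fragments -0.12 ± 0.04 and 0.28. The MHC difference therefore changed direction with the treatment of the values, while by all 3 measures it was lower than in the rest of the genome. The flanks were lower than the rest of the genome too. The upstream and downstream flank had 0.70 and 0.67 as deposited, -0.45 and -0.48 after centring, and 0.19 and 0.21 without single-library fragments. Values as deposited include a constant of -0.34 in the LmnA RNAi map and of 0.21 in the LmnC RNAi map, a fixed shift between them.

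Counted by bins, 14 of 36 MHC bins were more than 0.5 higher in LmnA RNAi cells than in LmnC RNAi cells, where 76.2% of the genome was, and 0 were more than 0.5 lower, where 0.813% was. After centring, 0 were higher (genome 16.4%) and 28 were lower (32.1%). Without single-library fragments 0 were higher (21.7%) and 1 was lower (0.0743%). The most positive bins with all fragments were those from 36700001 (1.56 ± 0.53, and 0.31 without single-library fragments) and 35300001 (1.33 ± 0.76, and -0.13 without). The most negative were those from 35000001 (-0.39 ± 0.59) and 35500001 (-0.34 ± 0.39). Of these 4 only the first exceeded 2 SE over fragments. The 4 were picked as the extremes of the 36 bins, which favours large values, so this is a description and no test.

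LmnA minus LmnB1 RNAi was 0.01 ± 0.08 over the MHC and 0.46 in the rest of the genome, and -0.21 ± 0.03 and 0.16 without single-library fragments. With all fragments 9 bins were more than 0.5 higher in LmnA RNAi cells (genome 48.8%) and 8 more than 0.5 lower (8.47%). After centring 3 were higher (14.4%) and 23 lower (32.9%), and without single-library fragments 3 were higher (16.2%) and 11 lower (2.45%). The higher ones were led by site 4: the bins from 36700001 and 36800001 stood at 2.01 ± 0.52 and 1.47 ± 0.46, and at 0.66 and 0.72 without single-library fragments. The lowest were those from 35000001 (-1.31 ± 0.52, and -0.75 without) and 34100001 (-1.22 ± 0.75, and -0.56 without). The contrast along the window was wider in LmnA RNAi cells than in LmnB1 RNAi cells, with an SD over bins of 2.28 against 1.69. The order was the same in the rest of the genome, at 2.05 against 1.88.

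LmnC minus LmnB1 RNAi was -0.37 ± 0.09 over the MHC against -0.54 in the rest of the genome, and -0.095 ± 0.03 against -0.12 without single-library fragments. Here 3 bins were more than 0.5 higher in LmnC RNAi cells (genome 4.74%) and 13 more than 0.5 lower (51.3%), and without single-library fragments 1 and 2 (0.625% and 9.97%). After centring 8 were higher (19.9%) and 5 lower (24.6%). The lowest bins were those from 34100001 (-1.59 ± 0.83) and 35900001 (-1.46 ± 0.51), at -0.27 and -0.64 without single-library fragments. The highest were those from 34900001 (0.86 ± 0.50) and 36800001 (0.72 ± 0.43), at 0.09 and 0.50 without. Of the 3 pairs this one came closest to its genome-wide level in the MHC mean.

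**Figure D5:**
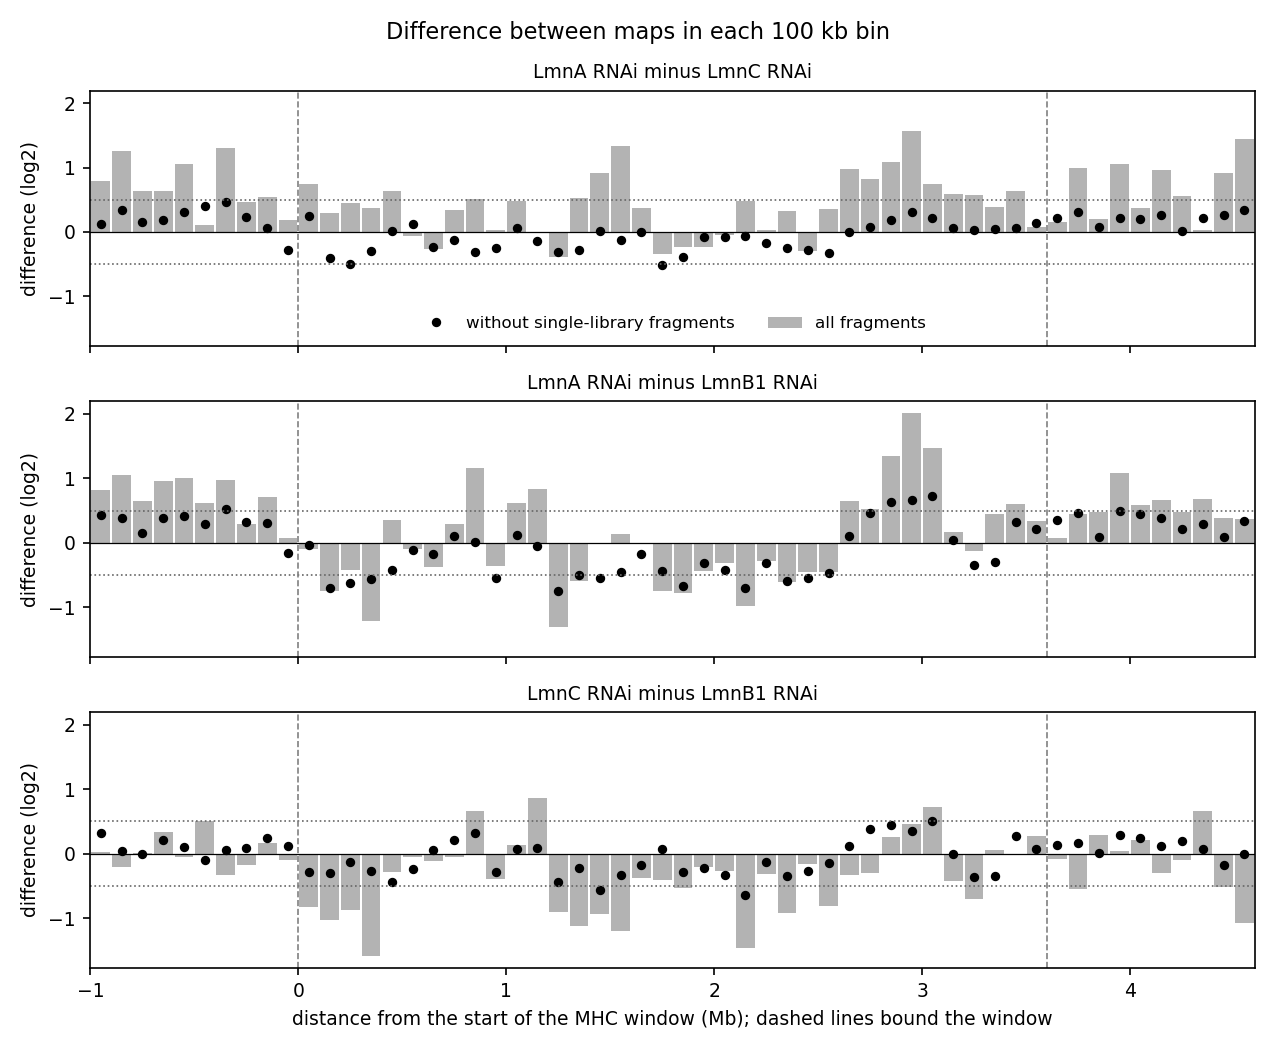
Difference in log2 ratio between maps in each 100 kb bin along the MHC and its flanks; grey bars use all fragments, black points leave out single-library fragments, dotted lines mark ± 0.5 and dashed lines the window. In LmnA minus LmnC RNAi the bar from 36700001 reaches 1.56 and its point 0.31. In LmnA minus LmnB1 RNAi the points over site 4 reach 0.72. There 3 of 36 points in the window lie above 0.5 (genome 16.2%) and 11 below -0.5 (genome 2.45%).

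In a comparison chosen after seeing the data, bins were matched by LAD status, since the MHC has more of its length outside LADs. In the 18 MHC bins wholly outside the LADs of all maps the median was -2.74 in LmnA RNAi cells, -3.15 in LmnC RNAi cells and -2.36 in LmnB1 RNAi cells. In 6225 such bins of the rest of the genome it was -2.17, -3.22 and -2.20. Without single-library fragments the medians were -1.58, -1.42 and -1.07 in the MHC bins and -1.33, -1.51 and -1.11 in the rest of the genome. In that version LmnA RNAi was lower than LmnC RNAi in 12 of the 18 bins, where 23.0% of all 6243 such bins of the genome were, and the median difference was -0.11, against 0.21 in the rest of the genome. LmnA RNAi was lower than LmnB1 RNAi in 17 of 18 (genome 74.0%), and LmnC RNAi was lower than LmnB1 RNAi in 17 of 18 (97.9%). With all fragments LmnA RNAi was lower than LmnC RNAi in 3 of 18 (4.89%) and lower than LmnB1 RNAi in 14 of 18 (46.9%), and LmnC RNAi was lower than LmnB1 RNAi in 17 of 18 (97.3%).

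In the 5 MHC bins wholly inside the LADs of all maps, 4 of them at site 4, the medians were 2.997, 2.09 and 1.64 in LmnA, LmnC and LmnB1 RNAi cells. The 12131 such bins in the rest of the genome had medians of 2.44, 1.75 and 1.95. The median of LmnA minus LmnB1 RNAi was 1.34 in these 5 bins and 0.55 in the rest of the genome, and 0.63 and 0.31 without single-library fragments. Neighbouring bins share a LAD and a pair of libraries, so the 5 bins are not replicates.

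Apart from these levels, the 3 profiles were alike in shape. Over the 36 bins Pearson's r was 0.980 for LmnA with LmnC RNAi, 0.972 for LmnA with LmnB1 RNAi and 0.977 for LmnC with LmnB1 RNAi (Spearman's rho 0.953, 0.942 and 0.962). Odd-numbered and even-numbered fragments of the same map, as a gauge of the precision within a library pair, gave 0.957, 0.940 and 0.945. Each side of that comparison holds only a part of the fragments of a bin, and different ones. These values therefore cannot be set against r between maps, which uses all fragments. The bins share libraries and fragment positions, so all these correlations are descriptions. The number of fragments per bin also went with the ratio, with r of 0.593, 0.542 and 0.553 in the MHC (rho 0.333, 0.367 and 0.355) and 0.317, 0.332 and 0.328 in the rest of the genome. The bins of site 4 had the most fragments, up to 351, and the part of fragment density in the ratio was not tested.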

How the data were processed

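Reads of 6 DamID libraries were aligned with Bowtie (version not given) to mm9, per the submitters' processing notes. How reads were filtered, ratios formed and LADs called is not given in the sources used here. For each map the authors deposited 1 log2 value per GATC fragment and a list of LADs with start and end, and both are printed as the files give them. The spacing of the deposited values shows log2 of fusion over Dam-only reads, 1e-05 added to both, plus a constant per map (LmnA RNAi -0.34, LmnC RNAi 0.21, LmnB1 RNAi -0.15). Recovered reads in single-library MHC fragments were whole within 0.02, with medians of 2, 2 and 1 reads. The 166253 fragments on unplaced sequence were left out.

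Length-weighted means were taken over 25588 bins of 100 kb, each covered by fragments over at least 50% of its length. A difference beyond 0.5 was counted, with no test, because each group held 1 library. Shares carry 95% Clopper-Pearson intervals. Python 3.11.15, numpy 2.4.6, pandas 2.3.3 and scipy 1.17.1 were used, and the steps were tested on simulated data. The window, lists and bins named (the highest and lowest 2 per map, the 2 largest differences per pair and direction, and all LADs and borders) were chosen with earlier results of these data known. A few more bins and stretches were named after their values were seen.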

Additional observations from a re-analysis of the deposited data

How the results depend on the processing

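No paired analysis was possible because each group holds 1 library per map and no test was made. The MHC means stayed below 0 under every alternative run. Over the MHC, LmnA minus LmnC RNAi and LmnC minus LmnB1 RNAi each turned under at least 1 alternative. LmnA minus LmnB1 RNAi was 0.01 ± 0.08 in the main setting and so had no clear direction to turn. The causes of the changes were not tested beyond what each setting does by construction.

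The MHC mean in LmnA, LmnC and LmnB1 RNAi cells was -0.80, -0.68 and -0.59 without single-library fragments, -0.80, -0.70 and -0.62 with these set to log2 of reads + 1, and -2.43, -1.66 and -1.77 with each map centred on its median bin. Without fragments at the constant it was -1.71 in LmnC RNAi cells and -1.28 in LmnB1 RNAi cells, and with fragments of equal weight -1.51 in LmnB1 RNAi cells.

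LmnA minus LmnC RNAi over the MHC turned to -0.12 without single-library fragments, to -0.10 with log2 of reads + 1 and to -0.77 after centring. LmnA minus LmnB1 RNAi was -0.21, -0.18 and -0.66 under these, and 0.44 with equal weight. LmnC minus LmnB1 RNAi was -0.095 and -0.080 under the first pair of these and turned to 0.062 with equal weight and to 0.11 after centring. In the upstream flank centring turned LmnA minus LmnC RNAi to -0.45, and in the downstream flank to -0.48 and LmnA minus LmnB1 RNAi to -0.14.

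Bins above 0 in LmnA RNAi cells fell to 5 of 36 after centring, which by construction sets the median bin of the genome to 0. Genome shares were not computed with equal weight, with log2 of reads + 1 or in bins of 50 kb. The counts below under these settings therefore describe the window alone and cannot be set against the genome. Bins higher in LmnA than LmnC RNAi by more than 0.5 numbered 0 without single-library fragments, with log2 of reads + 1 and after centring. Bins lower numbered 1 without single-library fragments, 5 with equal weight, 28 after centring and 7 of 72 in bins of 50 kb. For LmnA minus LmnB1 RNAi, 3 were higher without single-library fragments, with log2 of reads + 1 and after centring, and 23 were lower after centring. For LmnC minus LmnB1 RNAi, 1 was higher without single-library fragments and with log2 of reads + 1, 10 with equal weight, 8 after centring and 11 of 72 in bins of 50 kb. In the other direction 2, 1 and 5 were lower without single-library fragments, with log2 of reads + 1 and after centring. Among fragments of at least 200 bp, 40.2%, 29.2% and 34.0% of single-library MHC fragments were read in the fusion library in LmnA, LmnC and LmnB1 RNAi cells. With a median of 1 or 2 reads per single-library fragment, single fragments carry no stable value.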
